A study of Homo sapiens with 4 samples.

Results

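N6-methyladenosine (m6A) regions on the transcripts of ZNF genes outside chromosome 19 were examined in H1 cells, a widely used human embryonic stem cell line, of WT genotype. The genes were those annotated as protein-coding, with a symbol of ZNF and digits (with or without a closing letter), on any chromosome but 19. There were 263 such genes among 20056 protein-coding genes. A region belonged to one of them when its centre was annotated to one of the gene's transcripts, or, where no transcript matched, when the nearest start site was the gene's. This gave 300 of the 9900 deposited m6A regions, 274 by transcript and 26 by nearest start site, of which 23 lay between genes.

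The regions rest on 4 libraries of total RNA, 2 of input and 2 of RNA recovered with an m6A antibody. All 4 shared the line and the genotype, and no treatment beside the assay is named. Whether the replicates came from separate cultures is not stated. The deposited regions are 1 intersected set without peak heights, scores or separate values for the libraries, so no difference below could be set beside replicate error. Depth and RNA levels were unknown, so the absence of a region says nothing about whether the transcript was made or was unmethylated. Intervals are 95% Clopper-Pearson intervals for shares and 95% Newcombe intervals for differences of shares, and cover counting error only. Of 10 genes listed as markers of human embryonic stem cells, 3 held an exonic region (SOX2, SALL4 and L1TD1), beside 12.8% of all protein-coding genes. Regions alone cannot show whether a marker was expressed.

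m6A is laid down on nascent mRNA by a methyltransferase complex built on METTL3 and METTL14, often in long internal exons and near stop codons, and is read by proteins that alter splicing, translation and decay. Most ZNF proteins are transcription factors that bind DNA through arrays of C2H2 zinc fingers. In many of them the whole array is encoded by 1 long last exon, after short exons for a KRAB or SCAN domain. KRAB proteins recruit TRIM28 and silence transposable elements and imprinted loci in early embryos and stem cells. The ZNF genes expanded by tandem duplication, most of all on chromosome 19, and those elsewhere lie in smaller clusters or alone and include many older genes of other design.

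Many ZNF genes outside chromosome 19 held m6A in an exon. Exonic regions are those centred in a coding exon, a UTR or a non-coding exon. In the count of genes, a region was used only where its transcript matched the gene in RefSeq's table, which leaves out the coding-exon regions of ZNF852 (1047 bp) and ZNF311 (1512 bp). The genes with at least 1 exonic region were 139 of 263 (52.9%, interval 46.6 to 59.0%), beside 12.8% of all protein-coding genes. A further 40 genes (15.2%) held regions within their transcripts or at a transcript end but none in an exon, and 3 of these (ZNF326, ZNF678 and ZNF354A) were also the nearest gene to intergenic regions. Another 3 (ZNF852, ZNF311 and ZNF717) were reached only through a nearest start site or an unmatched transcript, and 81 (30.8%) had no region. The last of these classes included ZNF207, which stabilises a spindle checkpoint protein, ZNF598, a sensor of collided ribosomes, and all of ZNF705A, ZNF705B, ZNF705D and ZNF705G. The ZNF705 genes are near-identical copies, and how reads with several alignments were treated is not stated in the sources available. Among the genes with exonic m6A, 121 held 1 region, 16 held 2, and 2 held 3. Regions per gene were not counted for other genes.

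Short and long genes alike held exonic m6A. All protein-coding genes were divided by gene body length into 5 classes of equal size. From the shortest class up, an exonic region was held by 8 of 16, 35 of 63 (55.6%), 49 of 89 (55.1%), 33 of 58 (56.9%) and 14 of 37 (37.8%, interval 22.5 to 55.2%) of the ZNF genes outside chromosome 19. The 5 intervals overlapped, and a trend with length was not tested. Over all protein-coding genes the share went from 7.38% in the shortest class to 18.7% in the longest. In none of the 5 classes did the interval of the ZNF genes reach down to the share of all genes. Exon length and RNA level were not held fixed, and their part in the difference was not tested.

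**Figure D1:**
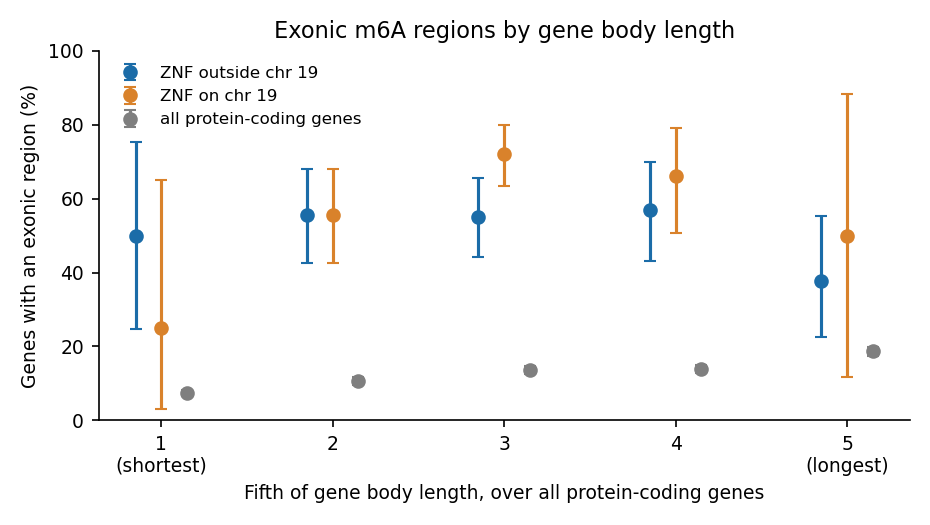
Share of genes with at least 1 exonic m6A region (%, vertical axis) in 5 classes of gene body length of equal size over all genes (horizontal axis), for ZNF genes outside chromosome 19, ZNF genes on chromosome 19 and all protein-coding genes, with 95% exact binomial intervals. ZNF genes outside chromosome 19 stay between 37.8 and 56.9%, while all genes go from 7.38 to 18.7%.

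Most of the regions were in coding exons and introns. Coding exons held 140 of the 300 centres (46.7%, interval 40.9 to 52.5%), introns 108 (36.0%), 3' UTRs 14 (4.67%), non-coding exons 7, promoters 5 and transcript ends 3. Over all 9900 regions, coding exons held 19.3%, introns 50.2% and 3' UTRs 7.12%. No centre was in a 5' UTR, which allows a share of up to 1.22% (exact upper bound). The share over all regions, 0.747%, lies within that bound. Exons of all kinds thus held 161 centres (53.7%, 47.8 to 59.4%), beside 30.9% of all 9900 regions. Compared with ZNF genes on chromosome 19, where 168 of 280 centres were exonic (60.0%), the difference (outside minus on) was -6.33 percentage points (interval -14.3 to 1.73, Fisher's exact test, two-sided, adjusted p = 0.198 over 6 tests). This difference did not pass the threshold of 0.05.

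Most coding-exon regions lay in the last exon of the transcript, which encodes the finger array in many of these genes. Where the transcript had 2 exons or more, 113 of 138 coding-exon regions were in the last (81.9%, interval 74.4 to 87.9%), beside 57.2% over all genes. An equal chance for each exon of the same transcripts would give 21.4%, but this value gives short and long exons the same weight. Exon lengths were not used, so the excess over 21.4% cannot separate the position of the last exon from its length. The share over all genes also lay above the equal-chance value of its own transcripts. Internal exons held 22 regions and first exons 3. The last-exon regions had a median width of 1465 bp, and the other coding-exon regions one of 1293 bp. Where the strand of the gene was known, the centres of 97 last-exon regions lay a median of 3482 bp from the 3' boundary of the gene (quartiles 1901 and 9253 bp), or 82.8% of the way along the gene body. In both comparison groups the medians were nearer to that boundary. They were 2933 bp (84.7% of the way) for ZNF genes on chromosome 19 and 2814 bp (90.0%) for other protein-coding genes.

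ZNF445, which helps to keep imprints after fertilisation, held 1 region of 3244 bp in exon 8 of 8 (chr3:44445652-44448895 of hg38). ZNF10, whose KRAB domain is the one used in many synthetic repressors, held 1 of 1540 bp in exon 5 of 5 (chr12:133155600-133157139), 3096 bp from the gene's 3' boundary at its centre. ZNF281, a Krüppel-like regulator of pluripotent cells, held 1 of 3077 bp in exon 3 of 3 (chr1:200406495-200409571). ZNF292, a large finger protein mutated in a neurodevelopmental disorder, held 2 in exon 9 of 9, of 3929 bp (chr6:87254726-87258654) and 2289 bp (chr6:87259554-87261842). All these regions sat in the final exon of transcripts with very different exon numbers.

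Regions in the last exon were less frequent outside chromosome 19 than on it. There, 129 of 133 coding-exon regions were in the last exon (97.0%), a difference of -15.1 percentage points (interval -22.6 to -7.99, odds ratio 0.140, Fisher's exact test, two-sided, adjusted p = 2.82e-04). Of the 25 regions of ZNF genes outside chromosome 19 that were not in the last exon, 13 lay in transcripts of 8 or more exons. Outside chromosome 19 the share was 49 of 51 (96.1%) in transcripts of 2 to 4 exons, 52 of 62 (83.9%) with 5 to 7, and 12 of 25 (48.0%) with 8 or more. On chromosome 19 it was 64 of 65, 58 of 61 and 7 of 7. Over all genes it was 79.1%, 65.2% and 34.4%, so the share of all genes also fell with exon number. With transcripts of up to 7 exons alone, an alternative chosen after the data were seen, the difference was -7.44 points (adjusted Fisher's exact p = 0.0705, which misses the threshold of 0.05). Regions were counted as independent, although genes side by side share an origin and some genes hold more than 1 region.

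**Figure D2:**
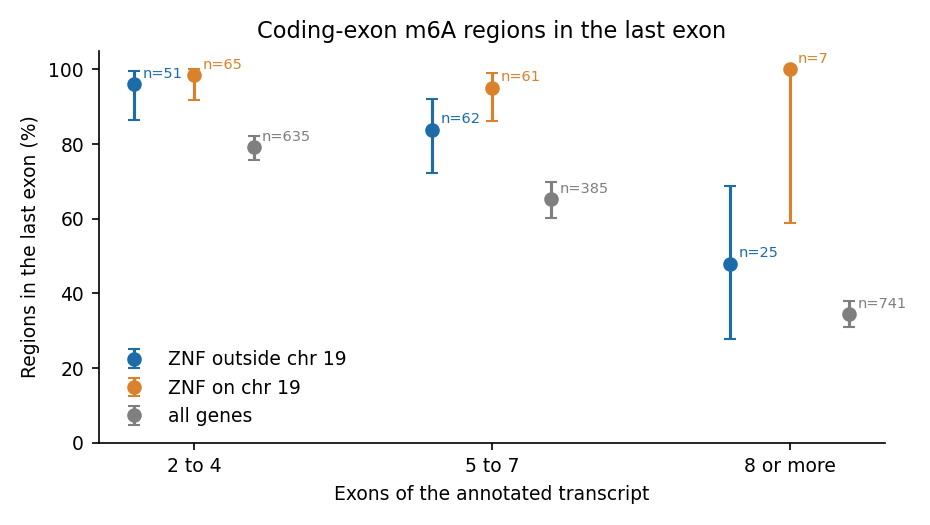
Share of coding-exon m6A regions that lie in the last exon (%, vertical axis) by the number of exons of the annotated transcript (horizontal axis), with 95% exact binomial intervals and the number of regions beside each point. ZNF genes outside chromosome 19 go from 96.1% with 2 to 4 exons to 48.0% with 8 or more, where all genes give 34.4%.

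Coding-exon regions outside the last exon were found in genes such as these. ZNF638, a DNA- and RNA-binding protein that silences unintegrated retroviral DNA, held 3 regions in exons 2, 22 and 24 of 28, of 1164, 1951 and 836 bp (chr2:71348820-71349983, chr2:71422968-71424918 and chr2:71426529-71427364). ZNF217, an oncogene product that acts with the CoREST and LSD1 corepressors, held 1302 bp in exon 3 of 5 and 846 bp in exon 1 of 5. ZNF516, also a corepressor partner, held 1666 bp in exon 4 and 1293 bp in exon 3 of 7. ZNF608 held 2490 bp in exon 4 and 1197 bp in exon 1 of 9. ZNF142 held 2 regions, of 1126 and 814 bp, both in exon 7 of 9. ZNF646 held the widest exonic region of all 263 genes, 5331 bp in exon 2 of 3 (chr16:31076329-31081659). The 3 first-exon regions were those of ZNF217, ZNF608 and ZNF407.

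Exon numbers follow the transcript named in the annotation. ZNF451, a SUMO ligase, shows this, with 1 region in exon 4 of 4 of a short transcript (chr6:57100697-57103135, 2439 bp) and another in exon 10 of 15 of a longer one (chr6:57147337-57148640, 1304 bp). ZNF407 likewise held 1 in exon 1 of 7 and 1 in exon 8 of 8. The latter was centred 1778 bp from the 3' boundary of the gene and the former 432638 bp from it.

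ZNF genes inside and outside gene clusters both carried exonic m6A. A cluster was taken as 3 or more of the genes with gaps of up to 200 kb, whatever their strand or relatedness. Genes outside clusters thus include close pairs as well as genes on their own. In the 18 clusters, 59 of 95 genes held an exonic region (62.1%, interval 51.6 to 71.9%), and outside them 80 of 168 did (47.6%, 39.9 to 55.5%). Gene bodies had a median of 20962 bp in clusters and 26788 bp outside. These 2 shares are a description, and their difference was not tested.

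Single clusters ranged from all members to few. In the cluster at the end of the long arm of chromosome 12 (chr12:132918306-133214832), all 7 genes held an exonic region, ZNF605, ZNF268, ZNF891 and ZNF10 among them. All 7 genes of a cluster on chromosome 16 (chr16:3112586-3443504) did so too, including ZNF263, ZNF213, ZNF75A and ZNF205. Another cluster of 7 genes (chr3:44431705-44737083) had 5, with ZNF445, ZNF660, ZNF35 and ZNF502. The rest of that cluster, ZNF852 and ZNF197, lacked one only by the matching of transcripts. The coding-exon region of ZNF852 (1047 bp) had an unmatched transcript. A last-exon region of 3108 bp inside ZNF197 was annotated to a readthrough transcript. In the other large cluster on chromosome 16 (chr16:30378312-30787205), 5 of 9 did, with ZNF629, ZNF48, ZNF689 and ZNF764. On chromosome 7, a cluster at chr7:149069641-149497809 had 4 of 8, namely ZNF786, ZNF398, ZNF746 and ZNF282. The largest cluster of all, 10 genes at chr7:63998849-64991036, had 3, ZNF117, ZNF138 and ZNF273. With 7 to 10 genes each, the intervals were wide, from 59.0 to 100% for 7 of 7 and from 6.67 to 65.2% for 3 of 10. Whether the genes without a region were transcribed could not be seen.

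**Figure D3:**
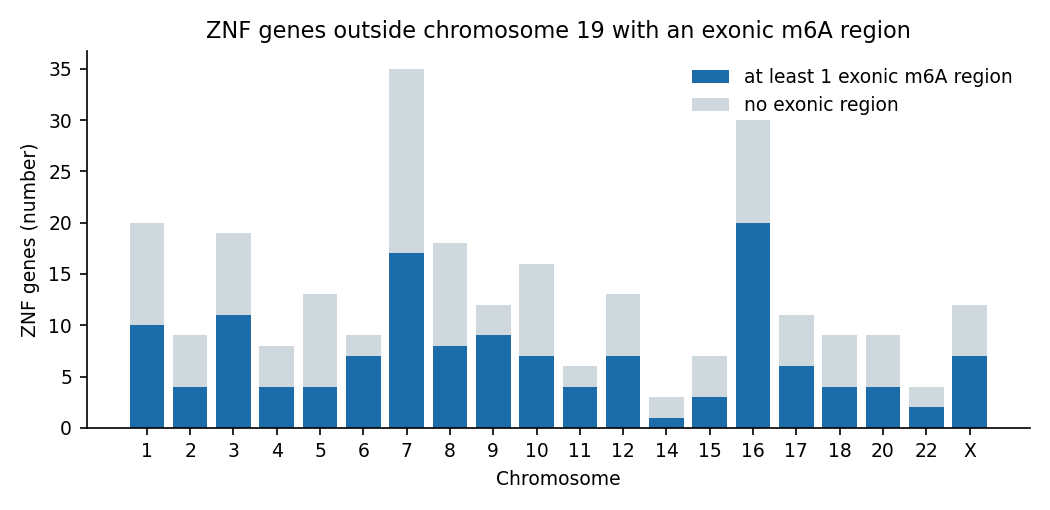
Number of ZNF genes (vertical axis) on each chromosome other than 19 that holds any (horizontal axis), divided into genes with at least 1 exonic m6A region and genes without. Chromosomes 7 and 16 hold the most genes with an exonic region, 17 of 35 and 20 of 30.

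By chromosome, the share ran from 4 of 13 genes on chromosome 5 (30.8%, interval 9.09 to 61.4%) to 7 of 9 on chromosome 6 (77.8%). Chromosome 16 had 20 of 30 (66.7%, 47.2 to 82.7%) and chromosome 7 had 17 of 35 (48.6%, 31.4 to 66.0%). The intervals of all chromosomes overlap, and differences between chromosomes were not tested.

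Of 33 listed genes with a KRAB or SCAN domain, 26 held an exonic region (78.8%, interval 61.1 to 91.0%), beside 52.9% of the 263 genes, with 27 regions in all. The list was drawn by hand with results known, holds all 7 genes of the chromosome 12 cluster and leaves out many other genes of this kind, so its share does not stand for them all. ZNF37A held 2 regions, of 1921 bp in the coding part and 2111 bp in the 3' UTR of exon 8 of 8. ZNF605 held 3784 bp in exon 5 of 5, ZNF202, a repressor of lipid metabolism genes, 3221 bp in exon 9 of 9, ZNF41 3114 bp in exon 5 of 5 and ZNF263 2747 bp in exon 6 of 6. Among those without an exonic region, ZNF33A, ZNF354A and ZNF197 had regions centred in introns, and ZNF25 had no region. In ZNF197, a region of 3108 bp (chr3:44641915-44645022) lay inside the gene body but was annotated to the last exon of the ZNF660-ZNF197 readthrough transcript, and so was not counted.

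Of 16 listed partners of chromatin complexes, 9 held exonic m6A (56.2%, interval 29.9 to 80.2%), with 15 regions. This share was close to the 52.9% of the 263 genes, beside 12.8% of all protein-coding genes. Besides ZNF638, ZNF451, ZNF516 and ZNF217, ZNF518A held 2 regions of 1581 and 2169 bp in exon 7 of 7, and ZNF277 held 1662 bp in the 3' UTR of exon 12 of 12, centred 504 bp from the gene's 3' boundary. ZNF335, part of a histone H3 lysine 4 methyltransferase complex, held no region, nor did ZNF512. ZNF512B and ZNF518B each held a region centred in an intron, of 708 and 14520 bp, and no exonic one.

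Of 17 listed regulators of pluripotency and development, 8 held exonic regions (47.1%, 23 to 72.2%), also close to the 52.9% of the 263 genes. Besides ZNF292, ZNF407, ZNF142 and ZNF281, ZNF483 held 2525 bp in exon 6 of 6 and ZNF322 held 2446 bp in exon 3 of 3. ZNF148 (a GC-box binding factor), ZNF423 (a regulator of neural and adipocyte fates) and ZNF143 (a promoter-binding factor) had regions in introns only, and ZNF207 had none. ZNF398, which maintains pluripotency and epithelial character in human stem cells, held 1284 bp in exon 7 of 7 (chr7:149178784-149180067) and a wider region in an intron.

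Genes of RNA metabolism, ribosomes and mitosis held exonic regions in 2 of 12 cases (16.7%, 2.09 to 48.4%). These were ZNF106, an RNA-binding protein, with 2178 bp in exon 2 of 19, and ZNF593, a ribosome biogenesis factor, with 861 bp in exon 2 of 3. ZNF131, ZNF326 and ZNF330 had regions centred in introns but none in an exon, and ZNF346 had no region. The listed genes are among the 263, whose share was 52.9%, and no list was tested against the rest. These lists, too, were drawn by hand with results known.

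Some exons held more than 1 region, a count that was not made for other genes. There were 10 pairs of regions in the same numbered exon, 1 pair in each of 10 genes, with gaps from 836 to 3874 bp (median 1056 bp). ZNF469, mutated in brittle cornea syndrome, held regions of 3648 and 5203 bp in its single annotated exon, 836 bp apart (chr16:88429874-88433521 and chr16:88434358-88439560). The gap was 842 bp in ZNF142, 853 bp in ZNF518A and 899 bp in ZNF292. ZNF618 held 1425 bp of coding sequence and 3235 bp of 3' UTR in exon 14 of 14, 1875 bp apart. ZNF778 held 3 exonic regions, 1892 bp in exon 7 of 7 and 966 and 1008 bp in exon 6 of 6 of a non-coding transcript. The last 2 were 3874 bp apart.

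Regions of up to 2 kb were more frequent outside chromosome 19 than on it. The median width of exonic regions was 1425 bp (quartiles 1113 and 2007 bp), against 1770 bp (1218 and 2321 bp) on chromosome 19. Exonic regions over all genes were narrower than both, with a median of 1293 bp. Of these, 79.9% were up to 2 kb wide, beside 74.5% of exonic regions of ZNF genes outside chromosome 19. Over all regions, 198 of 300 outside chromosome 19 were up to 2 kb wide (66.0%, interval 60.3 to 71.3%), beside 62.8% of all 9900 regions. On chromosome 19 it was 151 of 280 (53.9%, 47.9 to 59.9%), a difference of 12.1 points (interval 4.09 to 19.9, odds ratio 1.66, Fisher's exact test, two-sided, adjusted p = 0.0116). With 1 region per gene, the widest, the difference was 11.0 points (adjusted Fisher's exact p = 0.0774), which misses the threshold. With a limit of 5 kb in place of 2 kb it turned to -1.67 points (adjusted Fisher's exact p = 0.784). Among exonic regions alone, an alternative chosen after the data were seen, it was 15.6 points (adjusted Fisher's exact p = 0.0102). Next to the limit, ZNF35 and ZNF334 had coding-exon regions of 1968 and 1991 bp, and ZNF510 and ZNF213 had exonic regions of 2007 and 2008 bp.

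**Figure D4:**
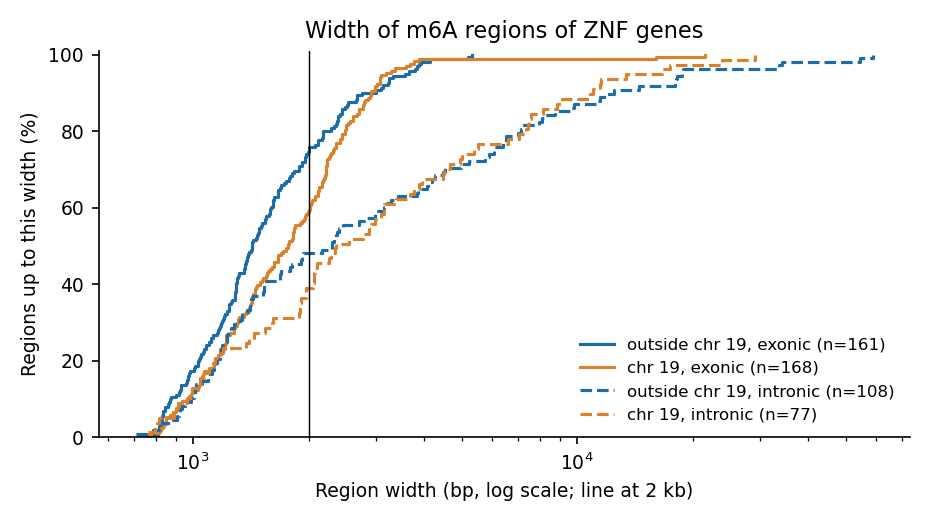
Cumulative share of m6A regions (%, vertical axis) up to a given width (bp, logarithmic horizontal axis) for exonic and intronic regions of ZNF genes outside and on chromosome 19; the vertical line marks 2 kb. At 2 kb the exonic curves stand at 74.5% outside and 58.9% on chromosome 19, and the intronic curves at 48.1% and 39.0%.

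The comparison of gene shares between the ZNF gene groups changed when wide regions were left out. On chromosome 19, the ZNF genes with exonic m6A were 159 of 246 (64.6%, interval 58.3 to 70.6%), a difference (outside minus on) of -11.8 points (interval -20.1 to -3.22, odds ratio 0.613, Fisher's exact test, two-sided, adjusted p = 0.0179). With regions up to 2 kb alone, the shares were 39.9% outside and 37.8% on chromosome 19, a difference of 2.12 points in the other direction (adjusted Fisher's exact p = 0.784). The call was also lost when any overlap with the gene body counted (-6.54 points, adjusted Fisher's exact p = 0.198), with the nearest start site giving the gene (-8.22 points, 0.129) and with symbols of digits only (-7.63 points, 0.187). Genes were counted as independent.

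ZBTB, ZSCAN and ZKSCAN genes, which encode C2H2 fingers behind a BTB or SCAN domain, could not be told from the ZNF genes outside chromosome 19 by these measures. Of 59 such genes outside chromosome 19, 33 held an exonic region (55.9%, interval 42.4 to 68.8%). The difference (ZNF minus these) was -3.08 points (interval -16.4 to 10.9, Fisher's exact test, two-sided, adjusted p = 0.784). In the last exon lay 20 of their 25 coding-exon regions (80.0%), a difference of 1.88 points (interval -11.4 to 21.8, adjusted Fisher's exact p = 0.784). Intervals this wide do not show that the families are alike.

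Intronic regions were wider than exonic ones and often lay in the last intron. The 108 intronic regions measured 2298 bp at the median, with quartiles of 1225 and 6087 bp. Over 5 kb in width were 31 of them (28.7%), and 2 of the 161 exonic regions (1.24%). Over all genes the intronic median was 2102 bp, and 26.6% of intronic and 0.882% of exonic regions were over 5 kb, so these values lay close to those of the series. In the last intron lay 46 (42.6%, interval 33.1 to 52.5%), beside 32 of 77 on ZNF genes of chromosome 19 (41.6%) and 1152 of 4967 over all genes (23.2%). In the first intron lay 33 (30.6%), beside 26.5% over all genes. A region in the only intron of its transcript, as in ZNF768 and ZNF92, counted in both. The number of introns was not held fixed, and its part in these differences was not tested. An annotated repeat held the centre of 54 of the 108, beside 54.7% of intronic regions over all genes. LINE L1 elements held 26 (24.1%, beside 28.8% over all genes), Alu elements 12 (11.1%, beside 12.2%) and LTR elements 7 (6.48%, beside 3.85%). ZNF423 held the widest region of all, 58858 bp in intron 2 of 7 (chr16:49730893-49789750), and ZNF618 the next, 54584 bp in intron 1 of 14. ZNF148 held 5 intronic regions of 1408 to 18019 bp and no exonic one. A region this wide can cover exons as well, and only its centre was annotated.

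Some first-intron regions began at an annotated start site. For 24 of the 33, the RefSeq promoter table gave at least 1 start site of the gene, and in 10 of these the upstream edge of the region lay within 50 bp of one (41.7%, interval 22.1 to 63.4%). In all 10 the edge was 2 to 45 bp downstream of that site. On ZNF genes of chromosome 19 the same held for 10 of 22 first-intron regions (45.5%), and over all protein-coding genes for 22.8% of 981. None of 59 later-intron regions, 120 coding-exon regions and 11 regions in 3' UTRs of the ZNF genes outside chromosome 19 began within 50 bp of a start site. Over all protein-coding genes these shares were also low, at 1.39%, 3.47% and 0.702%. The 10 regions were 888 to 12450 bp wide. A gene can have several start sites, and those met in ZNF768 and ZNF273 lay inside the gene body rather than at its boundary. The limit of 50 bp was chosen after the edges were seen. With 100 bp the count was 13 in first introns, 1 in later introns and 1 in coding exons.

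**Figure D5:**
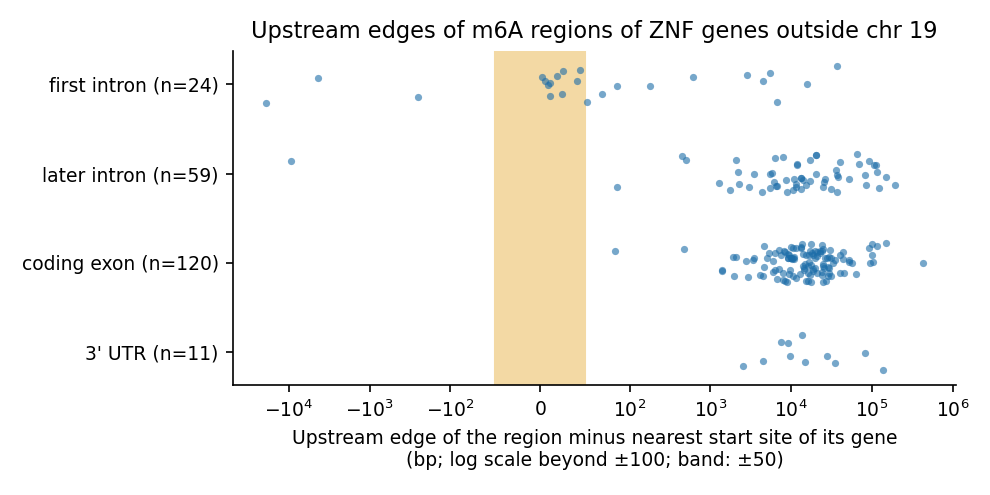
Distance from the nearest RefSeq start site of the gene to the upstream edge of each m6A region of ZNF genes outside chromosome 19 (bp, horizontal axis, linear within 100 bp of the site and logarithmic beyond), with 1 point a region and rows for the feature at the centre. In the first-intron row 10 of 24 points fall within 50 bp of the site, shown as a band, and in the 3 other rows none does.

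The sequences at these sites show how close the edges came. Each line below gives 30 bases of the sense strand, 15 before the start site and 15 from it on, from RefSeq's GRCh38.p14 promoter table, and capitals mark the bases inside the m6A region. They are shown for the 6 regions whose edge fell in this window, 5 in first introns and, for ZNF75A, 1 centred in a promoter.
ZNF501: gcgcgtccgggacttacTCCTTTCCGCAGG
ZNF768: agaggcgcggggtcaagacgtCCGGCCTCG
ZNF678: gggatctggcggggcctttgtcttGTGCTC
ZNF75A: ccacttccggccggcgctctggctctGTAC
ZNF138: ggcggcggggtctttgtctcgctgcaGCGG
ZNF197: tattctcggctcggccattattctgtGCCT

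In ZNF501 the window was chr3:44729620-44729649 on the plus strand, and the region began 2 bp after the start site and was 2294 bp wide. In ZNF768 it was chr16:30526552-30526581 on the minus strand, with the edge 6 bp downstream of the start site and a width of 888 bp. For ZNF678 (chr1:227563541-227563570, plus strand) the edge was 9 bp downstream and the width 7976 bp. For ZNF75A (chr16:3305482-3305511), ZNF138 (chr7:64794413-64794442) and ZNF197 (chr3:44625021-44625050), all on the plus strand, the edge was 11 bp downstream, with widths of 884, 1404 and 4476 bp. In ZNF775, ZNF397, ZNF143, ZNF92 and ZNF273 the edge lay 19, 25, 26, 41 and 45 bp downstream of a start site. A start site was found in the table for 214 of the 263 genes, and the other 49 were not examined in this way.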

How the data were processed

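HISAT2 2.2.1 and MACS2 2.2.7.1 are named for hg38, per the submitters' processing notes, beside HOMER, bedtools 2.30.0, Trim Galore 0.6.7 and SAMtools 1.6, with no settings. The authors deposited 9900 region positions in base pairs with their HOMER annotation. The peak sets behind the intersection are not stated in the sources available. Transcripts were matched to genes through RefSeq's GRCh38.p14 gene table.

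Shares were compared between ZNF genes outside and on chromosome 19, and with ZBTB, ZSCAN and ZKSCAN genes, by two-sided Fisher's exact tests with Benjamini-Hochberg adjustment over 6 tests (Python 3.11.15, scipy 1.17.1, statsmodels 0.14.6). Lists were described by counts, without a test against all genes. Functions were checked on made-up data with known answers.

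Genes named were the 10 with most exonic regions, the 5 with the widest, up to 6 with and 4 without an exonic region of 4 lists, up to 4 in each of the 5 largest clusters (and of a further one tied with the smallest of them) and the regions nearest 2 kb. ZNF598, the ZNF705 genes, ZNF311, ZNF717, the genes with regions outside the last exon and those with an edge at a start site were named beyond this, after their values were seen. ZNF398, ZNF10, ZNF207 and ZNF423 met these rules, and were also described in further places after their values were seen. The members and lists were chosen with earlier results of these data known. Counts of fingers and protein lengths were planned but not run, since protein sequences were not used here. Alternatives covered width, exon labels, gene naming, symbols and gene clusters.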

Additional observations from a re-analysis of the deposited data

How the results depend on the processing

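The 6 differences were recomputed under 34 alternatives, 7 of which were chosen after seeing the data; 25 alternatives kept the direction and the side of the threshold, and the cause of the other changes was not tested. For genes with exonic m6A (outside minus on chromosome 19, -11.8 points), the value was 2.12 with regions up to 2 kb, -6.54 with any overlap of the gene body, -8.22 with the nearest start site and -7.63 with symbols of digits only. For the last exon (-15.1 points), it was -7.44 with transcripts of up to 7 exons. For regions up to 2 kb (12.1 points), it was 11.0 with 1 region per gene and -1.67 with a limit of 5 kb. Against ZBTB, ZSCAN and ZKSCAN genes, which did not pass under any alternative run (lowest adjusted Fisher's exact p 0.172 for genes and 0.408 for the last exon), the gene share turned from -3.08 to 0.186 points with symbols of digits only, and the last-exon share from 1.88 to -1.90 with regions up to 2 kb. The exonic share of regions (-6.33 points) stayed between -8.64 and -4.96 and did not pass. No paired analysis was possible because the regions are 1 intersected set with no value per library, and for the same reason no library could be left out. Without peak scores or depths, no stricter set of peaks could be formed.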

Other observations

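Beyond the protein-coding ZNF genes, 21 regions outside chromosome 19 were annotated to other transcripts with a ZNF symbol. Transcribed pseudogenes held 12 of them, antisense long non-coding RNAs 5 and readthrough transcripts 4. The pseudogene ZNF37BP on chromosome 10 held 4, of 2065 and 1706 bp in exon 8 of 8 and of 2447 and 1105 bp in intron 5 of 7. Its protein-coding relative ZNF37A, on the same chromosome, held 3 regions, of which 2 were exonic. ZNF658B held 2091 bp in exon 5 of 5, ZNF204P 2061 bp in exon 4 of 4 and ZNF286B 1379 bp in exon 4 of 4, so last-exon regions were also found in these non-coding copies. How reads shared between such copies were placed is not stated in the sources available. ZNF407-AS1 held regions of 919 and 1248 bp in exons 2 and 1 of 2, and the strand of the RNA behind them was not given. A further count, partly of the same regions, was of 26 whose nearest start site was that of a ZNF gene but whose centre lay in another gene.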
